A study of Mus musculus with 21 samples.

Results

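The genes described here are the interferon response genes of the mouse lung after removal of the left lung. They were taken from a list of 39 genes named by symbol, of which 34 were represented in the deposited table by a probe set carrying that symbol alone, out of 19938 genes in all. Each of the 34 had exactly 1 such probe set. Isg15, Gbp2, Igtp and Irgm2 lay only on probe sets annotated with several symbols, and no probe set was matched to Ifi44, so these 5 were given no value. The right lungs of male C57BL/6 mice were profiled on 21 arrays. The 7 conditions were unoperated lung at day 0, lung at days 3, 7, 14, 28 and 56 after left pneumonectomy, and lung at day 56 after sham surgery. Every condition had 3 arrays, 1 each from the medial lobe, the cardiac lobe and the whole right lung; the whole lung may include the lobes. Day 0 mice had no operation, the age of the mice is not given in the labels, and the sham operation was sampled at a single time. Whether the regions of a condition share animals, or pool them, is not in the labels, so the p-values measure the spread between these arrays, which may be partly technical.

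Interferons are secreted antiviral proteins. Type I interferons (the alpha and beta interferons) signal through the IFNAR receptor to a complex that includes STAT2 and IRF9 and binds the interferon-stimulated response element (ISRE). Type II interferon, interferon gamma, is made mainly by T cells and NK cells and signals through the IFNGR receptor to factors that bind the gamma-activated site (GAS). Many target genes respond to both, so the members were divided by their main inducer as known from textbooks. Of the measured members, 23 were assigned to type I interferon (the Ifit, Oas and Mx families, RNA sensors and the signalling genes Irf7, Irf9, Stat2 and Usp18), 8 to type II (the GTPases Gbp3, Gbp5, Irgm1 and Iigp1, the antigen-processing genes Tap1, Psmb8 and Psmb9, and the chemokine Cxcl9), and 3 to both (Cxcl10, Zbp1 and Parp14). In the lung, macrophages, epithelium and endothelium all respond to both kinds of interferon.

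Promoter sequences of 5 members from both classes that differed between conditions are shown first, because each response element is bound by the factors of a different interferon pathway. RefSeq promoter windows of assembly GRCm38.p6 were matched by symbol to 31 of the 39 listed genes. The 250 bases before each start were searched on both strands for 2 cores. The ISRE core was GAAA repeated after any 2 bases, and the GAS core was TTCNNNGAA, with N any base. The ISRE core was found for 16 of the 31 genes (51.6%), against 3.46% of all 27025 genes with a window. The GAS core was found for 7 of 31 (22.6%), against 8.13% of all genes. The ISRE core was present in 9 of 20 type I genes (45%) and in 6 of 10 type II genes (60%), and the GAS core in 3 of 20 (15%) and 4 of 10 (40%). The 5 windows below run 5′ to 3′ in the direction of transcription and end at the base before the start, with core matches in capitals. They lie at chr19:34640639-34640888 on the plus strand (Ifit1), chr19:34583279-34583528 on the plus strand (Ifit3), chr3:142496684-142496933 on the plus strand (Gbp5), chr11:48871421-48871670 on the minus strand (Irgm1) and chr5:92328080-92328329 on the minus strand (Cxcl9).
Ifit1: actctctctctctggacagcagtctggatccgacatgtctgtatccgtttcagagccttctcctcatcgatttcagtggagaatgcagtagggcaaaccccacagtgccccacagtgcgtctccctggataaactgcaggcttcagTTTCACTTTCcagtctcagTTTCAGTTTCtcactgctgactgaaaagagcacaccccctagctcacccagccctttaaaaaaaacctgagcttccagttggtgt
Ifit3: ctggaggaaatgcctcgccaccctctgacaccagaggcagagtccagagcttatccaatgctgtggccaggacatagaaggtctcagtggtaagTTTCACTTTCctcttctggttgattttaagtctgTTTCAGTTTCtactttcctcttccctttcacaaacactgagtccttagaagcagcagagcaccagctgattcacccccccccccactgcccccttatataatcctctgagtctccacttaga
Gbp5: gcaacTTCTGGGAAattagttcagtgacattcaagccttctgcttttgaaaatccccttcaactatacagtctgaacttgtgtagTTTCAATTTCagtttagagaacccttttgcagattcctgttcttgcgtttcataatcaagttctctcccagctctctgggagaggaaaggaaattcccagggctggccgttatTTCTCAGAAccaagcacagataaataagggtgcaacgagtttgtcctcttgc
Irgm1: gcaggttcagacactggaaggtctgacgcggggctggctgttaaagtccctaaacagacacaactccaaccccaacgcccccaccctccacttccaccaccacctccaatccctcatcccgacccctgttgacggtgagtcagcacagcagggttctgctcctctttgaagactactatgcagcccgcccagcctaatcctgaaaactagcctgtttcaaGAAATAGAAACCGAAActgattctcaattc
Cxcl9: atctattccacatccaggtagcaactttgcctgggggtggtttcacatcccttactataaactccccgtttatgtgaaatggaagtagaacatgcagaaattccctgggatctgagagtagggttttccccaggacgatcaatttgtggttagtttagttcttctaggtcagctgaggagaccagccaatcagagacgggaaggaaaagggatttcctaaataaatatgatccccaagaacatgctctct
Ifit1 held 2 ISRE cores, at -104 to -95 and at -85 to -76 from the start. Ifit3 held the same 2 core sequences, at -156 to -147 and at -122 to -113. Gbp5 held 1 ISRE core at -165 to -156 and 2 GAS cores, at -245 to -237 and at -52 to -44. Irgm1 held 2 overlapping ISRE cores between -30 and -15. The Cxcl9 window held neither core, which says only that these letters are not in this window. The windows of Oasl2, Irf7 and Irf9, which also differed between conditions, held no ISRE core. The windows shown were chosen after the matches were seen. A core match is a description of the sequence and was not tested for binding.

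Values are deposited log2 values, on which 1 unit is a doubling, and are given for the medial lobe, the cardiac lobe and the whole right lung in that order. Array medians over all probe sets ran from 5.98 to 6.18. A pair of arrays had a narrower spread of gene values than the others of their region. The day 7 cardiac lobe had an interquartile range of 3.34, against 3.56 to 3.72 on the other cardiac arrays, and the day 56 pneumonectomy whole lung had 3.13, against 3.37 to 3.58. Psmb8, an immunoproteasome subunit, stood at 9.74 and 9.41 on those arrays, above its values on the other 19 arrays, which ran from 8.35 to 8.99. Lung identity was as labelled, since the 6 epithelial markers averaged 12.28 to 12.79 on every array and the 6 endothelial markers 9.86 to 11.18. Differences between conditions were tested with limma over all 19938 genes, with region as a block, and a gene was called where its Benjamini-Hochberg adjusted p lay under 0.05. A value after ± is the standard error of a fitted difference of 3 against 3 arrays.

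The interferon response genes did not move as a block. The moderated F test in limma called 13 of the 34 members for any difference among the 7 conditions, against 7.76% of all genes. These were Ifit1, Ifit3, Oasl2, Rsad2, Irf7, Irf9 and Trim30a of the type I class, Gbp3, Gbp5, Irgm1, Iigp1 and Cxcl9 of the type II class, and Zbp1. Ifit1, Ifit3, Irf9, Gbp5, Iigp1 and Cxcl9 had their highest group mean at day 0. Oasl2, Rsad2, Irf7, Trim30a, Gbp3, Irgm1 and Zbp1 had theirs at day 3. Of the latter, only Oasl2 and Zbp1 passed between day 3 and day 0, and the differences of Irf7 (0.58), Irgm1 (0.02), Rsad2 (0.16), Trim30a (0.13) and Gbp3 (0.15) did not. Because day 0 and sham differ for several members, each comparison is given against both controls; comparisons with the same control share its 3 arrays and are therefore not independent.

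**Figure D1:**
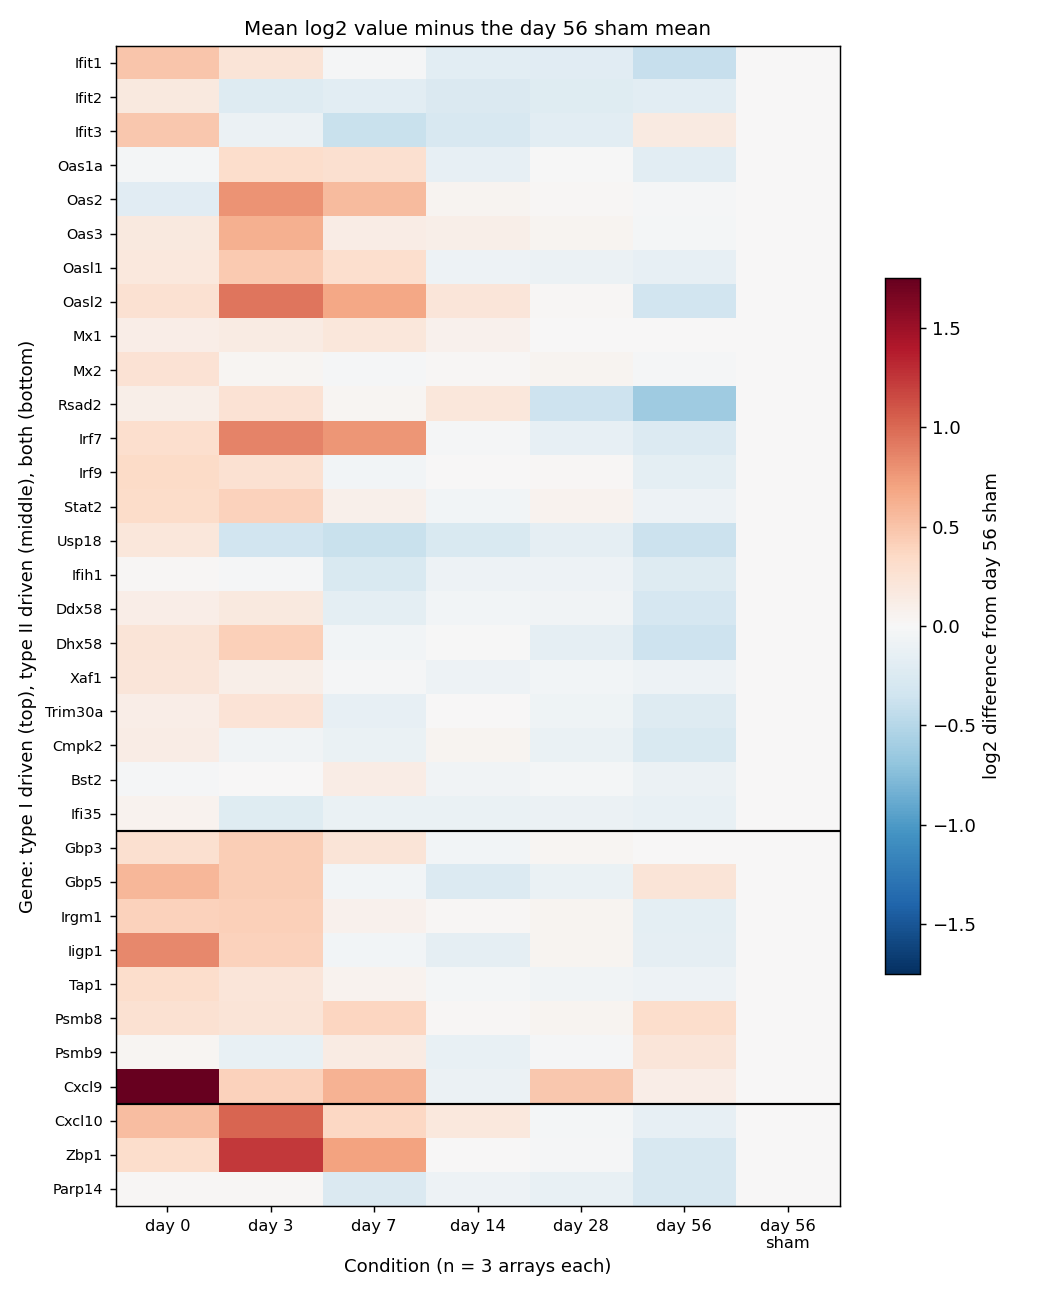
Group mean log2 value of each of the 34 measured interferon response genes minus its mean in the day 56 sham lungs (colour scale in log2 units; 3 arrays per condition; rows grouped as type I driven, type II driven and driven by both). Cxcl9 is the darkest gene at day 0, and Zbp1, Oasl2 and Irf7 are the darkest at day 3 among those called against sham.

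Of the 8 type II driven genes, Cxcl9, Gbp5, Iigp1 and Irgm1 passed as lower than day 0 at 1 or more times, and Gbp3, Tap1, Psmb8 and Psmb9 at none. Cxcl9, a chemokine that draws CXCR3-bearing T cells and NK cells, was the member with the largest fall. Its day 0 values were 8.01, 8.37 and 7.55. They were 6.28, 7.47 and 6.17 at day 3, 6.24, 7.89 and 6.39 at day 7, and 5.98, 6.36 and 6.08 at day 14. At day 28 Cxcl9 read 6.32, 7.41 and 6.40, at day 56 after pneumonectomy 6.32, 6.28 and 6.45, and at day 56 after sham 6.06, 6.26 and 6.39. Every later array lay below its own region's day 0 array, and at days 3, 7 and 28 the cardiac lobe stood more than a unit above the other regions. At day 7 the cardiac lobe lay within the day 0 range. The fitted difference from day 0 was -1.34 ± 0.28 at day 3 (limma adjusted p = 0.00859), -1.14 at day 7 (adjusted p = 0.0239) and -1.84 at day 14 (adjusted p = 0.00387), the last a 3.57-fold lower level. It was -1.63 at day 56 after pneumonectomy (adjusted p = 0.0412) and -1.74 after sham (adjusted p = 0.0129). At day 28 the difference of -1.27 (95% interval -1.87 to -0.67) had an adjusted p of 0.239. The day 14 call held without any 1 of its 6 arrays. The day 3 call was lost without the day 3 whole lung (adjusted p = 0.0592). The day 7 call was lost without the day 7 medial lobe or any of the day 0 arrays (smallest size -0.93), the sham call without the medial or cardiac array of either group (smallest size -1.49), and the day 56 call without any 1 of the 6 (smallest size -1.33).

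Gbp5, a guanylate-binding protein that acts in inflammasome and antibacterial defence, had day 0 values of 6.80, 6.86 and 6.38. At day 3 it read 6.47, 6.57 and 6.56, within the day 0 range. At day 7 it read 5.90, 6.16 and 6.13 and at day 14 it read 5.99, 5.75 and 5.86, all below every day 0 array. Gbp5 fell by 0.62 at day 7 (adjusted p = 0.00451) and by 0.81 at day 14 (adjusted p = 0.00176), and both calls held without any 1 array. In the sham lungs Gbp5 read 6.17, 6.09 and 6.04, lower than day 0 by -0.58 ± 0.11 (limma adjusted p = 0.0303). That call held without the day 0 whole lung but was lost without any 1 of the other 5 arrays, at -0.72 to -0.49 over all 6 omissions.

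Iigp1, an interferon-inducible GTPase that attacks the vacuoles of intracellular parasites, read 8.77, 8.87 and 7.95 at day 0. Its day 7 values were 7.55, 7.90 and 7.50 and its day 14 values 7.38, 7.58 and 7.65. Neither group overlapped day 0, though the day 7 cardiac lobe lay just below the day 0 whole lung. The falls were -0.88 ± 0.20 at day 7 (limma adjusted p = 0.0160) and -0.99 ± 0.20 at day 14 (adjusted p = 0.0206). In the whole lung alone the differences were -0.45 and -0.29, against -0.97 to -1.39 in the lobes. The day 7 call was lost without the day 0 medial lobe or the cardiac lobe of either group, and the day 14 call without either lobe of either group; over all single omissions the sizes lay between -1.21 and -0.76.

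Irgm1, a GTPase that governs autophagy and the other immunity-related GTPases, was lower than day 0 at day 7 by -0.33 ± 0.09 (limma adjusted p = 0.0350) and at day 56 after pneumonectomy by -0.58 ± 0.09 (adjusted p = 0.0240). Its day 0 values were 8.24, 8.46 and 7.97. It read 8.001, 7.96 and 7.72 at day 7 and 7.73, 7.74 and 7.47 at day 56. The day 7 medial lobe lay above the day 0 whole lung, so those groups overlapped, whereas all day 56 values lay below day 0. Each of the 2 calls held under 1 of the 6 single-array omissions and was lost under the other 5, with sizes from -0.37 to -0.27 and from -0.62 to -0.51. Neither passed without the 2 arrays of narrow spread (-0.29 and -0.59). Tap1, which carries peptides for MHC class I, and the immunoproteasome subunits Psmb8 and Psmb9 were called in no comparison with either control.

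As a class, 1 of the 8 type II driven genes passed as lower at day 3, 4 at day 7, 3 at day 14, 0 at day 28, and 2 at day 56 after either operation, and none passed as higher at any time. The share of all genes called lower was 2.73% at day 3, 4.97% at day 7, 0.707% at day 14, 0 at day 28, 0.0853% at day 56 after pneumonectomy and 0.206% after sham. The class median difference from day 0 ran from -0.12 at day 3 to -0.37 at day 56 after pneumonectomy, and was -0.35 in the sham lungs. The median over all genes lay between -0.00 and 0.03 in these comparisons. Arrays of the later group lay wholly below day 0 for 6 of the 34 members at day 3 (12.1% of all genes), 11 at day 7 (12.3%), 17 at day 14 (7.1%), 19 at day 28 (5.54%), 21 at day 56 after pneumonectomy (6.43%) and 16 in sham (6.84%). The type II class mean on an array was 8.06 to 8.51 at day 0 and 7.70 to 7.79 in the sham lungs, which did not overlap. At day 28, where limma called 0 of 19938 genes, 18 of the 34 members had an unadjusted p under 0.05, against 7.22% of all genes. The members with the smallest p of each class there were Gbp5 at -0.69, Ifit1 at -0.68, Cxcl9 at -1.27 and Ifit3 at -0.66.

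**Figure D2:**
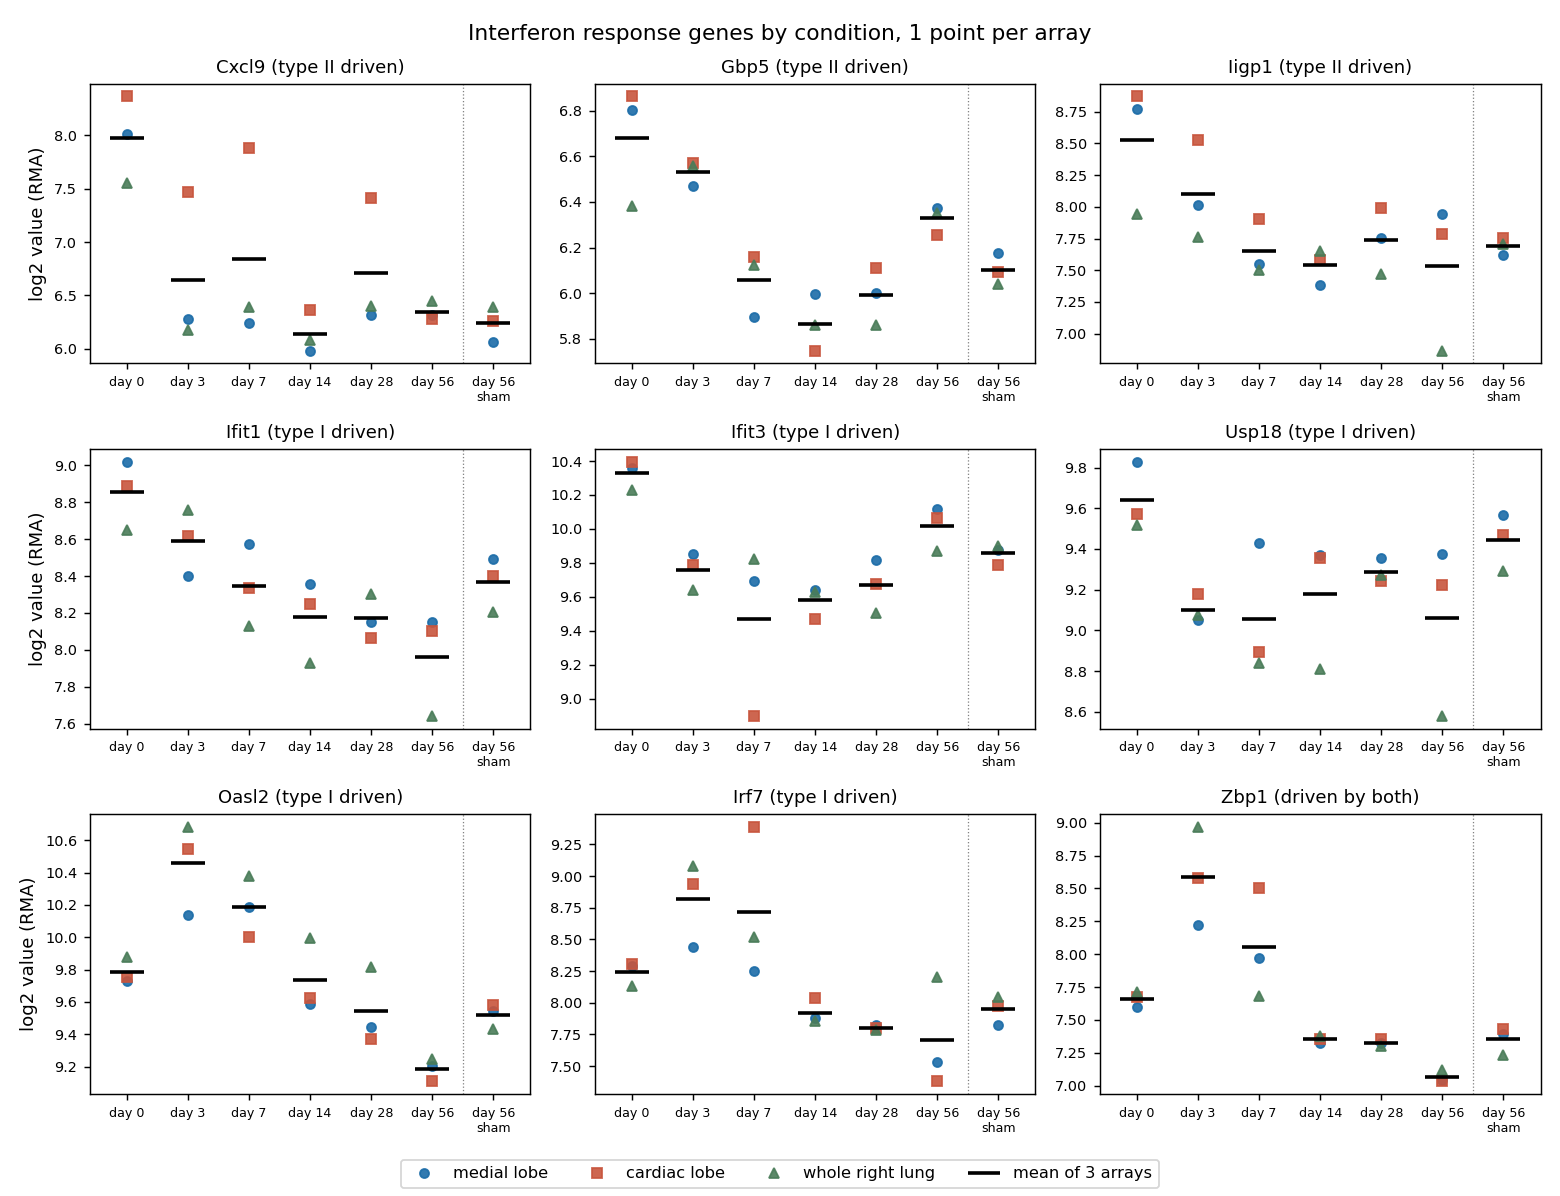
Deposited log2 values (vertical axes, which differ between panels and do not start at 0) of 9 interferon response genes on each of the 21 arrays by condition, with symbols for the region and a bar for the mean of 3 arrays. Cxcl9, Gbp5, Iigp1, Ifit1, Ifit3 and Usp18 have their highest mean at day 0, while Oasl2, Irf7 and Zbp1 have theirs at day 3.

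Among the type I driven genes, the Ifit genes, Usp18 and Irf9 were lower than day 0. Ifit3, an antiviral protein that works with IFIT1, read 10.36, 10.40 and 10.23 at day 0. It read 9.85, 9.79 and 9.64 at day 3, 9.69, 8.90 and 9.82 at day 7 and 9.64, 9.47 and 9.63 at day 14. All 9 of these values lay below every day 0 array, with the day 7 cardiac lobe lowest. The fall was -0.57 ± 0.16 at day 3 (limma adjusted p = 0.0414), -0.86 at day 7 (adjusted p = 0.00561) and -0.75 at day 14 (adjusted p = 0.0273). Without the day 7 cardiac lobe and the day 56 pneumonectomy whole lung, the arrays of narrow spread, the day 7 fall was -0.58. The day 7 call held without any 1 array. The calls at days 3 and 14 were lost without any 1 of their 6 arrays, at sizes of -0.64 to -0.48 and -0.80 to -0.66. Sham values were 9.88, 9.79 and 9.90, and the difference of day 3 from sham was -0.10 (95% interval -0.44 to 0.24).

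Ifit1, which binds viral RNA that lacks the host's cap methylation, passed the test at days 7, 14 and 56 after pneumonectomy. It did not pass at day 3 (-0.26, limma adjusted p = 0.323) or day 28 (-0.68, adjusted p = 0.202). It read 9.02, 8.89 and 8.65 at day 0, 8.57, 8.33 and 8.13 at day 7, 8.36, 8.25 and 7.93 at day 14 and 8.15, 8.10 and 7.64 at day 56 after pneumonectomy. These later groups did not overlap day 0, and within each group except day 28 and day 3 the whole lung was lowest. The differences were -0.51 ± 0.14 at day 7 (limma adjusted p = 0.0338), -0.68 at day 14 (adjusted p = 0.0218) and -0.89 at day 56 (adjusted p = 0.0240). Without any 1 array, the day 14 call was lost in all 6 cases and the other calls in 5 of 6 each, with sizes from -0.95 to -0.45 over the 3 times. Without the arrays of narrow spread Ifit1 no longer passed at day 7 (-0.50) or day 56 (-0.77). Sham values of 8.49, 8.40 and 8.20 also lay below day 0, by -0.49 (95% interval -0.78 to -0.19), with an adjusted p of 0.179.

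Usp18, the protease that removes ISG15 and blocks IFNAR signalling, read 9.83, 9.57 and 9.52 at day 0. It read 9.05, 9.18 and 9.08 at day 3 and 9.43, 8.90 and 8.84 at day 7, below day 0 on every array. It fell by 0.54 at day 3 (limma adjusted p = 0.0295) and by 0.58 at day 7 (adjusted p = 0.0204). The day 3 call held only without the day 3 whole lung, and the day 7 call was lost without the day 0 medial lobe, the day 0 whole lung or the day 7 cardiac lobe; the sizes were -0.70 to -0.41. Ifit2, a relative of Ifit1 and Ifit3, passed at day 3 alone, at -0.40 ± 0.11 (adjusted p = 0.0477). Its values were 7.70, 7.91 and 7.53 at day 0 and 7.40, 7.48 and 7.07 at day 3, and the call was lost without any 1 array (-0.45 to -0.31). Irf9, the DNA-binding partner of STAT2, was lower by -0.39 ± 0.09 at day 7 (adjusted p = 0.0174) and by -0.50 at day 56 (adjusted p = 0.0485). It read 9.02, 9.17 and 8.90 at day 0, 8.77, 8.55 and 8.61 at day 7 and 8.66, 8.62 and 8.31 at day 56, with no overlap. The Irf9 call was lost under 3 of 6 single-array omissions at day 7 and 5 of 6 at day 56 (-0.55 to -0.30), and at day 56 also without the arrays of narrow spread (-0.44).

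Of the 5 Oas family members, Oasl2 and Oas2 passed as higher than day 0, and Oas1a, Oas3 and Oasl1 passed in no comparison with either control. Oasl2, an oligoadenylate synthetase-like protein with a ubiquitin-like tail, moved the other way from the Ifit genes. It read 9.73, 9.75 and 9.88 at day 0 and 10.14, 10.55 and 10.68 at day 3. It read 10.19, 9.999 and 10.38 at day 7 and 9.59, 9.63 and 9.99 at day 14. All 6 values of days 3 and 7 lay above day 0, and the day 14 values overlapped it. Oasl2 rose by 0.67 ± 0.12 at day 3 (limma adjusted p = 0.00234), which held without any 1 array, and by 0.40 at day 7 (adjusted p = 0.0441), which was lost without any 1 array (0.35 to 0.48). Oas2, which makes the 2′-5′ oligoadenylate that activates RNase L, rose at day 3 by 0.98 ± 0.24 (adjusted p = 0.0212). Oas2 read 6.44, 6.54 and 6.26 at day 0 and 6.78, 7.17 and 8.23 at day 3, so the whole lung carried most of the difference. The Oas2 call was lost without that array, where the difference was 0.58 (adjusted p = 0.0957), and also without the whole lung (0.81) or the cardiac lobe (1.04) of day 0.

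Against day 0, the type I class thus had members in both directions: 2 higher and 3 lower of 23 at day 3, and 1 higher and 4 lower at day 7. Among all genes, 3.97% were called higher and 2.73% lower at day 3, and 3.73% and 4.97% at day 7. The 1 higher call at day 7, Oasl2, was close to the share of all genes and was lost without any 1 array. Over all members, the 9 calls at day 7 became 10 when the whole lung of that day was left out, and 3 when its cardiac lobe or any day 0 array was left out. Later the type I class had 2 lower at day 14, 0 at day 28, 2 lower at day 56 after pneumonectomy and 0 after sham. The class median was 0.04 at day 3, -0.24 at day 7, -0.19 at day 14, -0.24 at day 28 and -0.34 at day 56, and -0.17 in the sham lungs. Mx1 and Mx2, antiviral dynamin-like GTPases, read between 4.03 and 4.88 on all arrays, near the low end of the scale, and passed in no comparison. The RNA helicases Ifih1, Ddx58 and Dhx58, which sense viral RNA, also passed in none.

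The sham lungs, which lost no lung tissue, also lay below day 0. Against day 0, 31 of the 34 members were below 0 in the sham lungs, with a median of -0.22, and 31 of 34 were below 0 at day 56 after pneumonectomy, with a median of -0.35. Only Cxcl9 and Gbp5 passed in the sham comparison. The direct comparison of the 2 groups at day 56 called 0 of the 34 members with limma, against 0.336% of all genes. There 7 members had an unadjusted p under 0.05, against 8.18% of all genes, and 27 of 34 were below 0 with a median of -0.15. Rsad2, the antiviral enzyme viperin, had the smallest p. It read 6.07, 5.71 and 5.88 after pneumonectomy and 6.41, 6.63 and 6.47 after sham, a difference of -0.62 (95% interval -0.96 to -0.27, adjusted p = 0.191). Those groups did not overlap. Cxcl9 differed between the 2 day 56 groups by 0.11 (95% interval -0.49 to 0.71) and Gbp5 by 0.23 (95% interval -0.01 to 0.46).

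Against sham, members of both classes passed as higher at day 3, 2 of 23 type I driven and 3 of 8 type II driven genes, beside Zbp1. At that time, 6 of the 34 members passed as higher and 0 as lower, against 4.46% and 3.21% of all genes. Leaving out the day 3 whole lung left 2 calls, leaving out the day 3 medial lobe gave 10, and leaving out any of the other 4 arrays left 3. Of the members, 27 of 34 were above 0 with a median of 0.25 beside -0.00 over all genes. Arrays of day 3 lay wholly above sham for 16 members, against 10.3% of all genes. Zbp1, a sensor of Z-form nucleic acid that triggers necroptosis, had the largest difference. It read 8.22, 8.58 and 8.97 at day 3 against 7.40, 7.43 and 7.23 in sham and 7.60, 7.67 and 7.72 at day 0. All 3 day 3 values exceeded every array of both controls, with the whole lung highest. The difference was 1.24 ± 0.17 from sham (limma adjusted p = 0.000249), a 2.36-fold higher level, and 0.93 ± 0.17 from day 0 (adjusted p = 0.00289). Both Zbp1 calls held without any 1 array.

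Oasl2 was higher at day 3 than in sham by 0.94 ± 0.12 (limma adjusted p = 0.00014), with sham values of 9.54, 9.58 and 9.43 below all day 3 values, and this held without any 1 array. Irf7, the transcription factor that amplifies alpha interferon production, read 8.44, 8.93 and 9.08 at day 3 against 7.82, 7.98 and 8.05 in sham. The groups did not overlap, and the difference was 0.87 ± 0.22 (adjusted p = 0.0245). The Irf7 call held without the day 3 medial lobe but was lost without any 1 of the other 5 arrays (0.76 to 0.996). Against day 0 (8.29, 8.30 and 8.13) the Irf7 difference was 0.58, with an adjusted p of 0.153. Cxcl10, a chemokine of the same receptor as Cxcl9, spread from 6.48 through 7.67 to 8.53 over the regions at day 3. The medial lobe lay below its own day 0 and sham arrays, and neither comparison passed (1.02 from sham, 95% interval 0.30 to 1.74, adjusted p = 0.0869).

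Among the type II driven genes, 3 GTPases were higher at day 3 than in sham. Gbp3 read 8.58, 8.60 and 8.54 against 8.12, 8.17 and 8.15, a difference of 0.43 ± 0.11 (limma adjusted p = 0.0222). Gbp5 read 6.47, 6.57 and 6.56 against 6.17, 6.09 and 6.04, a difference of 0.43 ± 0.11 (adjusted p = 0.0249). Irgm1 read 8.18, 8.36 and 8.18 against 7.98, 7.92 and 7.57, a difference of 0.42 ± 0.09 (adjusted p = 0.00835). None of the 3 overlapped sham, and none was called against day 0 at day 3, where their differences were 0.15, -0.15 and 0.02. The Irgm1 call was lost without the day 3 whole lung (0.34). The Gbp3 call was lost without any 1 array (0.38 to 0.45), and the Gbp5 call in 5 of 6 cases (0.38 to 0.48). Cxcl9 did not pass against sham at day 3, with a difference of 0.40 (95% interval -0.20 to 1.001).

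**Figure D3:**
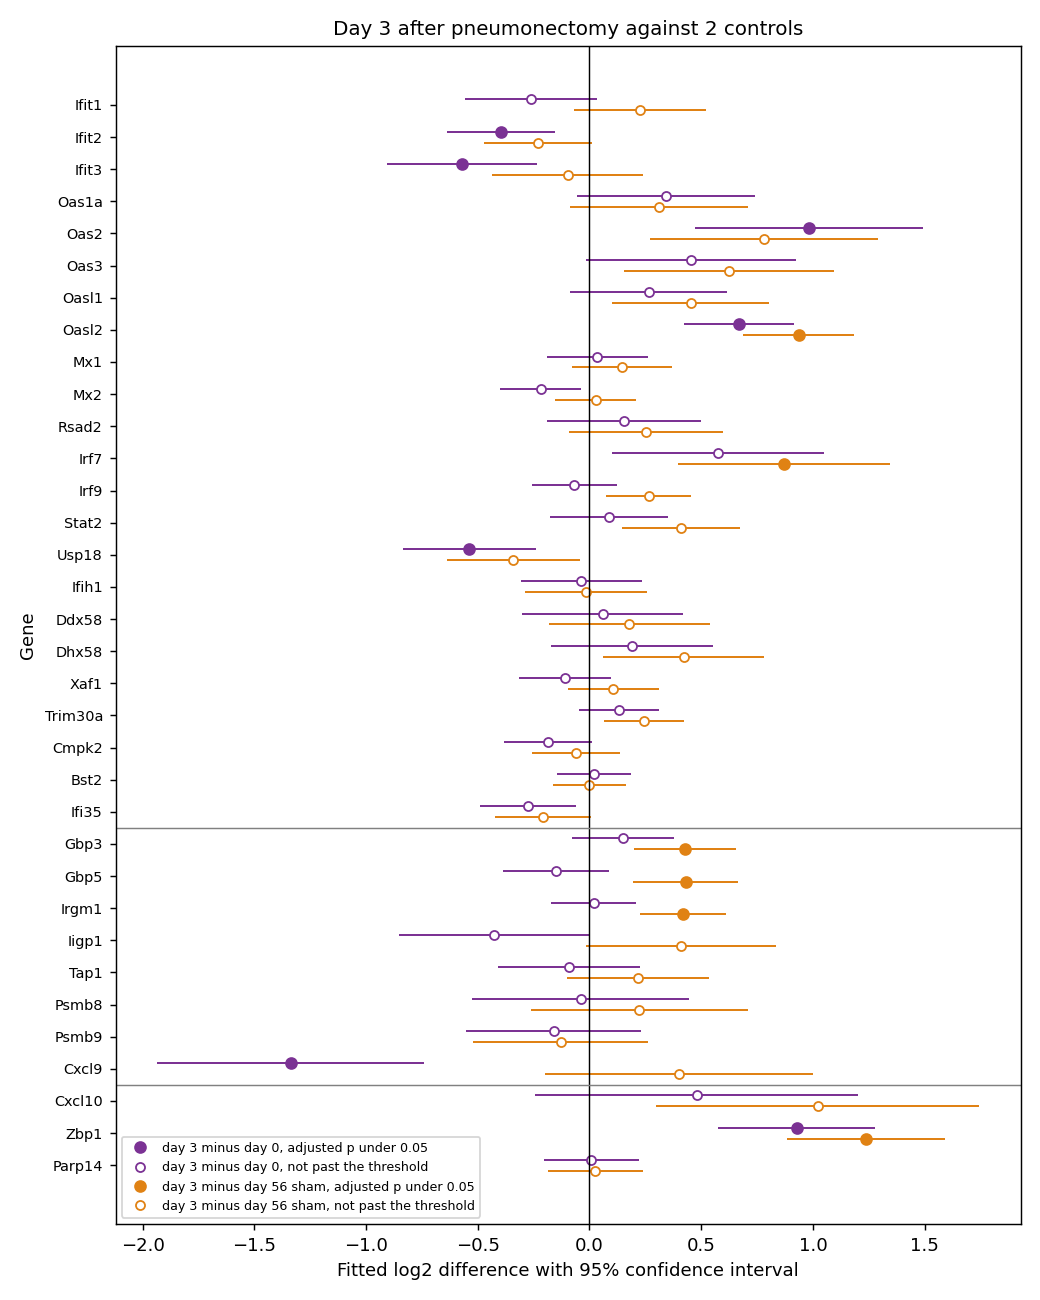
Fitted log2 difference of day 3 after pneumonectomy from day 0 (purple) and from day 56 sham (orange) for each of the 34 interferon response genes, with 95% confidence intervals and filled points where the adjusted p was under 0.05. Zbp1 and Oasl2 are the genes filled on the same side for both controls; Cxcl9 is filled at -1.34 against day 0 and open at 0.40 against sham.

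At day 7, 2 of the 34 members passed as higher than sham, against 2.37% of all genes called higher (0 members and 2.15% of genes were lower), and from day 14 on limma called none. Arrays of day 7 lay wholly above sham for 6 members, against 7.32% of all genes. Oasl2 was 0.67 ± 0.12 above sham at day 7 (limma adjusted p = 0.00454) and this held without any 1 array. Zbp1 read 7.97, 8.50 and 7.68 at day 7 and was 0.70 ± 0.17 above sham (adjusted p = 0.0252). The cardiac lobe stood highest, and the Zbp1 call was lost without the day 7 cardiac lobe, the day 7 medial lobe or either the whole lung or the cardiac lobe of sham (smallest size 0.48), and without the arrays of narrow spread (0.48). Irf7 read 8.25, 9.39 and 8.52 at day 7, 0.77 above sham with an adjusted p of 0.0626. At days 14 and 28 limma called 0 members against sham, while 0.0652% and 0.186% of all genes were called. There 1 member at each time had an unadjusted p under 0.05, Ifit2 at day 14 (-0.26) and Rsad2 at day 28 (-0.37). The member medians were -0.05 and -0.04.

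The early response was also compared between regions, with day 0 and sham as control and days 3 and 7 as early. For the 34 members the difference in early response between the cardiac and the medial lobe called 0 members and 0 of 19938 genes with limma (smallest adjusted p = 0.964), and that between the whole lung and the lobes likewise (smallest adjusted p = 0.996). In each, 1 member had an unadjusted p under 0.05, against 4.35% and 2.24% of all genes. These were Irf7, whose early response was 0.73 greater in the cardiac than in the medial lobe, and Parp14, an ADP-ribosyltransferase, at 0.36 for the whole lung over the lobes. With 1 array per region and condition, this fit had to pool the conditions of a phase. Differences inside a phase, such as that of Cxcl9 between day 0 and sham, therefore added to the spread. Differences between regions of the size seen for Cxcl9, Cxcl10 and Oas2 could not be told from that spread.

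The upstream genes of the pathway showed few calls. The interferon genes themselves (Ifnb1, Ifng, Ifna4, Ifna2, Ifnl2 and Ifnk) were called in none of the comparisons with day 0 or sham. Ifng read 4.83 to 5.41 and Ifnb1 4.35 to 4.66 over the 21 arrays, near the bottom of the range, so a small change in either could go unseen. Ifnl2 stood higher on the scale. It read 7.74, 7.25 and 7.42 at day 7 against 6.93, 6.87 and 7.10 at day 0, without overlap. Its sham values of 6.75, 7.38 and 7.37 overlapped those of day 7. Of 14 receptor and JAK-STAT genes, Socs3, a feedback inhibitor of JAK signalling that is also induced by IL-6, was higher than day 0 at day 3 by 1.16 and at day 7 by 1.15, and higher than sham at day 3 by 0.72 (limma adjusted p = 0.0424). Socs3 read 7.74, 7.81 and 7.64 at day 0, 8.34, 8.39 and 7.78 in sham and 8.43, 9.07 and 9.18 at day 3, above both controls throughout. Ifnlr1, the receptor chain for lambda interferons, was lower at day 3 than day 0 by -0.71 (adjusted p = 0.00128) and than sham by -0.43 (adjusted p = 0.0270), and lower than day 0 at day 7 by -0.41 (adjusted p = 0.0353). Stat4, the IL-12 signal transducer of T and NK cells, was lower than day 0 at day 7 by -0.96. Of 10 genes of nucleic acid sensing, Sting1, the adaptor of cytosolic DNA sensing, rose at day 3 by 0.74 over day 0 and 0.96 over sham (adjusted p = 0.000105), and was above sham at day 7 by 0.48 (adjusted p = 0.0241). Its values were 9.45, 9.98 and 9.77 at day 3, 8.88, 9.06 and 9.03 at day 0 and 8.93, 8.77 and 8.64 in sham, with no overlap. Myd88 was higher than day 0 at day 3 (0.39) and Tlr3 lower at day 7 (-0.58), and of 8 transcription factors only Ciita, the master regulator of MHC class II, passed, at -0.46 from day 0 at day 7.

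Markers of lymphocytes were also lower than day 0 at days 3 and 7. The mean of 7 T cell markers on an array was 7.60 to 7.85 at day 0, 6.85 to 7.08 at day 3, 6.75 to 6.89 at day 7, 6.90 to 7.04 at day 14 and 7.03 to 7.19 in sham. The day 0 range lay above that of every later group, the highest of which was day 28 at up to 7.44. Of the 7, limma called 6 lower than day 0 at day 3, 6 at day 7, 5 at day 14, 0 at day 28, 2 at day 56 after pneumonectomy and 3 after sham. Cd3g, a chain of the T cell receptor complex, had the largest falls, at -1.59 at day 7 and -0.88 in sham. Of 7 NK markers 2 were called lower at day 3, 5 at day 7, and 0 at days 14, 28 and 56 or in sham. Their mean was 7.14 to 7.68 at day 0 against 6.70 to 6.94 in sham. All 6 B cell markers were lower than day 0 at days 3 and 7, 4 at day 14, 0 at day 28, 1 at day 56 after pneumonectomy and 0 after sham. At day 28 the B cell mean was 7.99 to 8.75, beside 8.38 to 8.88 at day 0, and the NK mean was 6.73 to 7.67. The ranges of both overlapped day 0 at that time. In sign, 6 of 6 B cell markers (median -0.28) and 6 of 7 NK markers (median -0.28) lay below 0 there. So did 7 of 7 T cell markers (median -0.41) and 32 of the 34 interferon response genes (median -0.26). None of these markers has a true zero on an array, and their part in the lower Cxcl9, Gbp5, Iigp1, Ifit and Usp18 values was not tested. In tissue RNA, fewer cells of a type and less RNA per cell cannot be told apart.

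Markers of monocytes and interstitial macrophages were higher at day 3 than in both controls. Their mean over 6 genes was 8.87 to 9.81 at day 3, against 7.82 to 8.18 at day 0 and 7.79 to 8.17 in sham, with no overlap. At day 3, 4 of the 6 were higher than day 0 and 5 higher than sham, and at day 7, 3 and 2. Against sham at day 3, Ccr2, the chemokine receptor of recruited monocytes, was higher by 1.40 and the complement genes C1qa, C1qb and C1qc by 1.60 to 1.89. At day 3 the whole lung had the highest mean of these markers (9.81) and the medial lobe the lowest (8.87). Zbp1, Oasl2, Irf7, Oas2 and Cxcl10 had the same order of regions at day 3, and Gbp3, Gbp5 and Irgm1 did not. The order was not particular to higher members. It also held for Ifit1 (8.40, 8.62 and 8.76), Xaf1 (7.46, 7.56 and 7.63) and Ifi35 (8.46, 8.48 and 8.55), whose day 3 means lay below day 0. The share of all genes in this order was not counted. At day 7 the monocyte and macrophage marker means were 8.01, 9.16 and 8.38, highest in the cardiac lobe, an array of narrow spread. Zbp1, Irf7, Oas2 and Cxcl10 were also highest there, whereas Oasl2 was lowest there (10.19, 9.999 and 10.38). The part of these cells in the higher Zbp1, Oasl2, Irf7 and GTPase values was not tested. Against sham, 0 of 7 NK and 1 of 7 T cell markers passed at day 3, the latter Cd2 at -0.60. Of 6 endothelial markers, 3 were lower than sham at day 3 (median -0.59) and 3 at day 7 (median -0.48), and their mean was 9.86 to 10.66 at day 3 against 10.72 to 11.18 in sham. Against day 0, 0 of the 6 passed at day 3 (median -0.24) or day 7 (median -0.14). The sham lungs themselves lay above day 0 for 6 of 6 (median 0.32), with 0 called. The part of endothelium in the differences from sham was not tested either. Plasmacytoid dendritic cells, known for making alpha interferon, had a marker mean of 6.88 to 7.34 on all arrays. Of their 5 markers, limma called 1 lower than day 0 at day 7 and 1 at day 14, and 0 at day 3 against either control.

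**Figure D4:**
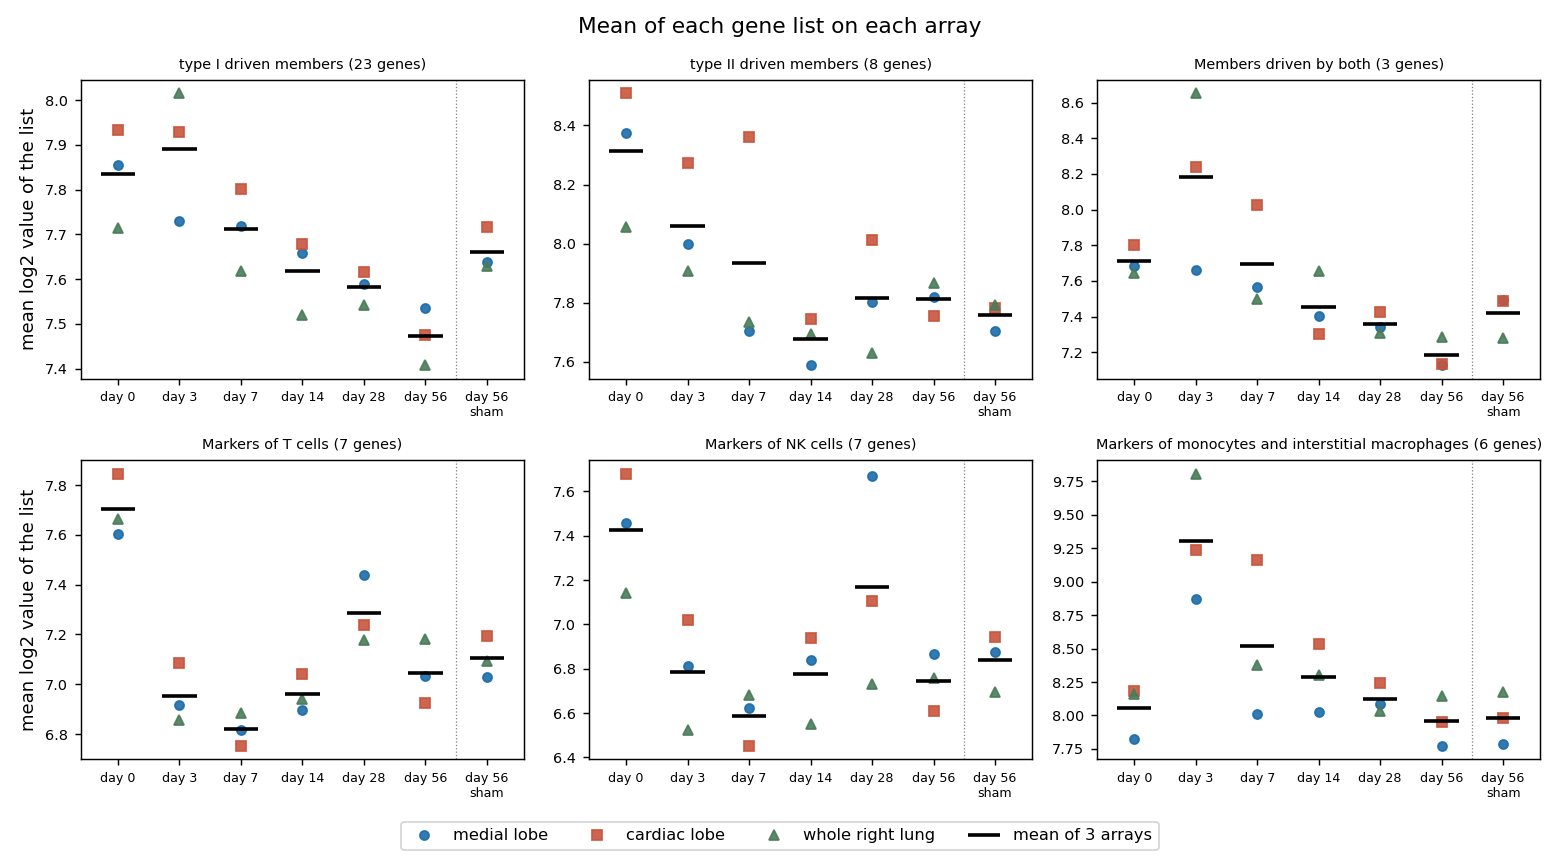
Mean log2 value on each array (vertical axes, which differ between panels and do not start at 0) of the 3 classes of interferon response genes and of markers of T cells, NK cells, and monocytes and interstitial macrophages, by condition, with symbols for the region and a bar for the mean of 3 arrays. The type II class and the T cell markers are highest at day 0, and the monocyte and macrophage markers are highest at day 3.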

How the data were processed

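RNA from 21 lung samples was measured on 21 Affymetrix arrays. The deposited file holds log2 values made by the authors with RMA (background correction, normalization between arrays and summary of probes), per the submitters' processing notes; its version and settings: not given in the sources used here. Per the labels' protocols, cDNA was amplified from the 3' end, but the probe annotation belongs to a whole-transcript array. Of 35556 probe sets, 21789 carried 1 symbol, 1621 several and 12146 none; of 19938 genes, 999 had several probe sets, and the one with the highest mean was kept.

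limma 3.58.1 in R 4.3.3 was fitted to all 21 arrays with condition and region, leaving 12 residual degrees of freedom, with Benjamini-Hochberg adjustment over all genes. The number of arrays limits the precision. Replicate numbers stand for the 3 labelled regions, which were used as a block. Scripts were tested on simulated data. Members, classes and other gene lists were chosen with earlier results of these data known. All measured members could be named; per-array values were given for the called members with the largest differences, or those with the smallest p where none passed. Alternatives dropped the region term, the dimmer genes, single arrays, the whole lungs or the 2 arrays of narrow spread, averaged probe sets, changed limma's prior, centred arrays or fitted 6 arrays alone.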

Additional observations from a re-analysis of the deposited data

How the results depend on the processing

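None of the 35 called gene differences reversed under any alternative. Over the settings other than single arrays, 196 of 270 values kept their call and 74 lost it; leaving out single arrays, 93 of 210 kept it and 117 lost it. Zbp1 at day 3 against both controls, Oasl2 at day 3 against sham, and Cxcl9 and Gbp5 at day 14 against day 0 kept their call under every alternative run. Cxcl9 and Gbp5 were left out with the dimmer genes, so that alternative did not test them. Without the replicate block (no region term), 3 members were called at day 3, 2 at day 7, 2 at day 14, 0 at day 56 and 1 in sham against day 0, and 7 by the F test. Without the dimmer genes, 24 members were tested, and Cxcl9, Gbp5 and Oas2 were not among them. Of the 24, 3, 2 and 0 were called against day 0 at day 14, day 56 and in sham. The 0 in sham was fixed beforehand, since the only members called there, Cxcl9 and Gbp5, had been left out. With arrays centred on their median, 2 were called at day 56 and 1 in sham. In the lobes alone, 1 was called at day 3, 0 at day 56 and 1 in sham (not a gene called there in all 3 regions) against day 0, 2 at day 3 against sham, and 6 by the F test. Without the 2 arrays of narrow spread, 11 were called at day 14, 2 at day 28, 1 at day 56 and 6 in sham against day 0, and 11 at day 3 and 1 at day 7 against sham. With only the 6 arrays compared, 0 were called at days 7 and 56 against day 0 and 0 at day 7 against sham. Apart from the members left out with the dimmer genes, the cause of these shifts was not tested. Leaving out 1 array gave 3 to 4 called members at day 3, 3 to 10 at day 7, 2 to 3 at day 14, 0 to 1 at day 28, 0 (without any array but the day 56 medial lobe) to 4 at day 56 and 0 (without the medial or cardiac array of either group) to 2 in sham against day 0. Against sham it gave 2 (without the day 3 whole lung) to 10 (without the day 3 medial lobe) at day 3, 1 to 4 at day 7, and 0 at days 14, 28 and 56.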
